A study of Rattus norvegicus with 8 samples.

Results

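The 37 genes described here serve fatty acid uptake, activation and storage, beta-oxidation in mitochondria and peroxisomes, and ketone body metabolism. They were chosen by symbol, as probes whose gene name on the array equals a member, out of 26243 genes with a probe. All 37 had a probe, and 36 passed the filter on dim signal, which kept a probe only if some group had it well above background on each of its 2 arrays. The exception was Pdk4, the kinase that turns off pyruvate oxidation, which was well above background on 1 of 8 arrays.

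RNA from the colon of 14-week-old female Wistar rats was hybridised to Agilent 1-colour arrays in 4 groups of 2 arrays each (n = 2 throughout). The groups were DSS colitis on a diet rich in ALA (α-linolenic acid, the n-3 fatty acid of plant oils), DSS colitis on fish oil (long-chain n-3 fatty acids), DSS colitis on sunflower oil (the n-6 diet), and healthy rats on sunflower oil. Diets lasted 8 weeks. Rats with colitis were given 5% DSS (dextran sulfate sodium), which damages the epithelium of the large bowel, over 7 days. Each array carried pooled RNA of 6 rats, while healthy rats numbered 6 and colitic rats 10 per diet. Both healthy arrays thus hold one set of animals, whether that is so for the colitis duplicates is not stated, so the p-values reflect nothing but differences between duplicate arrays. The design sets both n-3 diets against the n-6 diet in colitis.

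Fatty acids enter cells with the help of transporters and binding proteins, are joined to coenzyme A by acyl-CoA synthetases, and cross the mitochondrial membranes as carnitine esters. Beta-oxidation then shortens them in repeated rounds of dehydrogenation, hydration, a second dehydrogenation and thiolytic cleavage, while very long chains start in peroxisomes. Epithelial cells of the colon are known for using butyrate, a short-chain fatty acid made by gut bacteria, as their main fuel, and they can turn part of it into ketone bodies. Many of the genes are known targets of the PPAR nuclear receptors, which bind fatty acids.

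The signals below come from probes of 60 bases. The probes of Acat1 and of the paired subunit genes Hadha and Hadhb are shown because the results turn on them, and Hadha had 2. They lie, on the rn4 build, at chr8:57056663-57056722 on the minus strand for Acat1, at chr6:26144500-26144559 on the minus strand for Hadhb, and on sequence of chromosome 6 that was not placed in that build for Hadha. No part of them is set in capitals.
Acat1 probe: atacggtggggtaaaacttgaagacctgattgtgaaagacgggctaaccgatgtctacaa
Hadhb probe: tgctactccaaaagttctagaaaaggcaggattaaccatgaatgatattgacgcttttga
Hadha probe used: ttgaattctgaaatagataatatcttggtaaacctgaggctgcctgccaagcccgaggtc
Hadha other probe: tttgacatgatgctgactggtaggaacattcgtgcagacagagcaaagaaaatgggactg

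Promoters (250 bases before to 50 after the start of transcription) were found for 33 of the 37 genes in RefSeq on the GRCr8 build. They were searched on both strands for AGGTCA, the hexamer that nuclear receptors such as the PPARs bind, and for the looser direct repeat AGGNCANAGGNCA, within which a hexamer match may lie. The hexamer was in 21.2% of the members' promoters (7 of 33), against 16.2% of all 33469 promoters of the table. The direct repeat was in 1 of 33, that of Fabp1, against 0.415% of all promoters, and its strict form AGGTCANAGGTCA was in 0 of 33, against 0.0538%. The Fabp1 promoter (chr4:104749090-104749389, plus strand) carries the repeat at -77 to -65 relative to the start, the Slc27a2 promoter (chr3:134257851-134258150, plus strand) carries the hexamer at -76 to -71, and the Hadhb promoter (chr6:31907451-31907750, minus strand) carries it at 43 to 48. Capitals mark these matches, each read on the opposite strand. A match is a description of letters and not a binding site.
Fabp1 promoter: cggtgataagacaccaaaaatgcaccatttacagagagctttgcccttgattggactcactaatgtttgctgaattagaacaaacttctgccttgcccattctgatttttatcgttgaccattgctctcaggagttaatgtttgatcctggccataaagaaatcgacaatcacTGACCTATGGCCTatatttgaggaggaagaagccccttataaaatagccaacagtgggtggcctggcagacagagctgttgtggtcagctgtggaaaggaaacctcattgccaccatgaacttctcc
Slc27a2 promoter: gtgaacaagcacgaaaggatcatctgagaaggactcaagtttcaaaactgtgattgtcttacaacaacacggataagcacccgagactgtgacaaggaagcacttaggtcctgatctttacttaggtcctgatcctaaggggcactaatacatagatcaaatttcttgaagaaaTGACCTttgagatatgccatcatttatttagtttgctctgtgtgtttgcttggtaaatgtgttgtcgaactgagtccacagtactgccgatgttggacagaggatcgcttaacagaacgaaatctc
Hadhb promoter: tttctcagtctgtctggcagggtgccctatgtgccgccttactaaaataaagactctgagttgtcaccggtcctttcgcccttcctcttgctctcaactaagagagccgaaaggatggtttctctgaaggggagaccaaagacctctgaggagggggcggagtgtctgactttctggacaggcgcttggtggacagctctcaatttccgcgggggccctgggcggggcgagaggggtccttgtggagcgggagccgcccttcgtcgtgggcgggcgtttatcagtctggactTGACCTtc
Hadha and Hadhb encode the alpha and beta subunits of the mitochondrial trifunctional protein. Their starts lie head to head, 301 bases apart, and their promoter windows overlap by 200 bases, so the Hadhb sequence above also shows most of the Hadha promoter.

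Each level is a log2 signal from which the 75th percentile of its array was subtracted. That percentile lay between 6.85 and 8.78 (log2 of the processed signal), and 54% to 70.1% of the 30367 probes were well above background, with fish oil replicate 1 the lowest on both counts. One array stood apart for the genes described here. The mean level of the 36 members was 0.98 and 1.25 on the ALA arrays, 1.51 and 1.54 on the fish oil arrays, 0.52 and 1.45 on the n-6 arrays, and 1.61 and 2.14 on the healthy arrays, so that n-6 replicate 1 was the lowest of the 8. The same array had the lowest mean of 10 epithelial markers, 3.21, against 5.01 on n-6 replicate 2, 4.45 and 4.51 with ALA, 5.45 and 5.13 with fish oil, and 4.96 and 4.95 in healthy colon. The members' medians that rest on the n-6 group are therefore also given without that array, as are some of their counts at an unadjusted p and the values of several single genes. All 8 arrays lay on 1 slide, and in each comparison either slide row or slide column changed with the group, so slide position and group cannot be told apart. Because whole colon was measured, fewer cells of a type and less RNA per cell cannot be told apart.

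**Figure D1:**
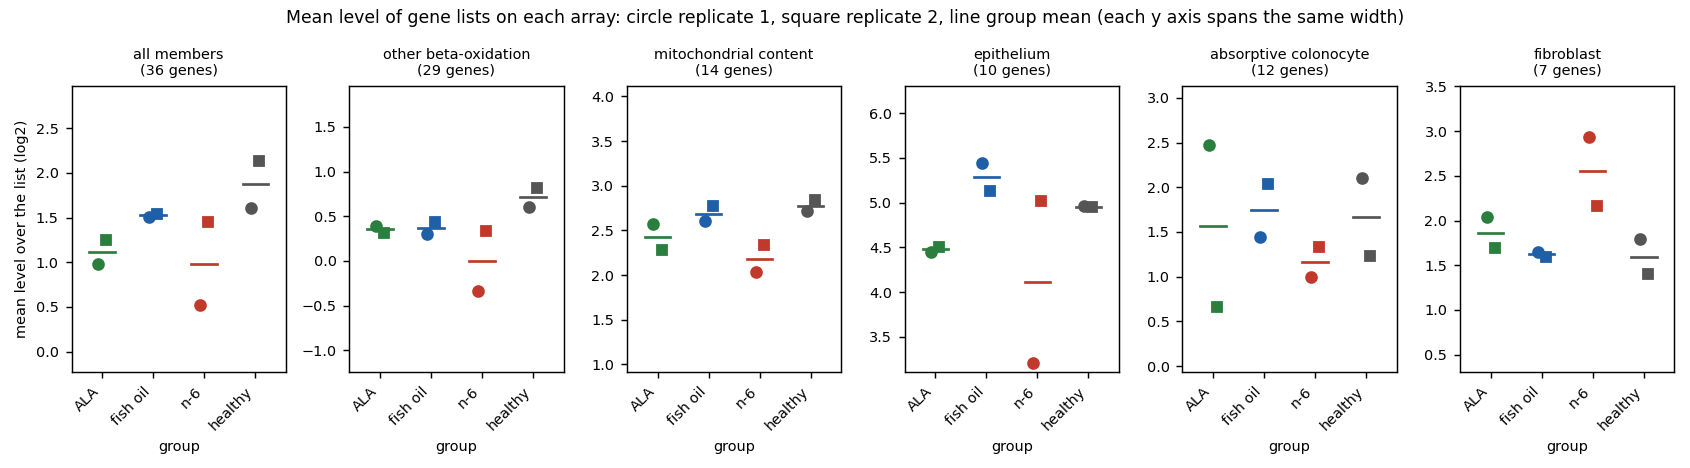
Mean log2 level of 6 gene lists on each array (circle replicate 1, square replicate 2, line group mean), by group. The members' mean was lowest on n-6 replicate 1, at 0.52, where the epithelial mean was also lowest, at 3.21, and the fibroblast mean highest, at 2.94.

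No member passed an adjusted p of 0.05 (limma, Benjamini-Hochberg over 18199 genes) in any of the 6 comparisons, so no single gene below is called changed. Against healthy colon, most members were lower in all 3 colitis groups, with a median log2 difference of -0.68 with ALA, -0.27 with fish oil and -0.81 with n-6. Of the 36 members, 8 were below both healthy arrays on all 6 colitis arrays, or 22.2%, against 5.28% of all genes (960 of 18199). These were Acadm, Hadha, Hadhb, Cpt1a, Etfdh, Acat1, Fabp2 and Slc27a2, the last of which passed the filter only through the healthy group, where it is high. Hadha was among them on the probe used but not on its other probe. No member was above both healthy arrays on all 6, against 5.08% of all genes. Taken singly, the arrays had 26 and 30 of 36 members below both healthy arrays with ALA (30.8% and 38.8% of all genes), 18 and 19 with fish oil (35.6% and 33.7%), and 28 and 20 with n-6 (37% and 36.9%). These counts all use the same 2 healthy arrays.

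**Figure D2:**
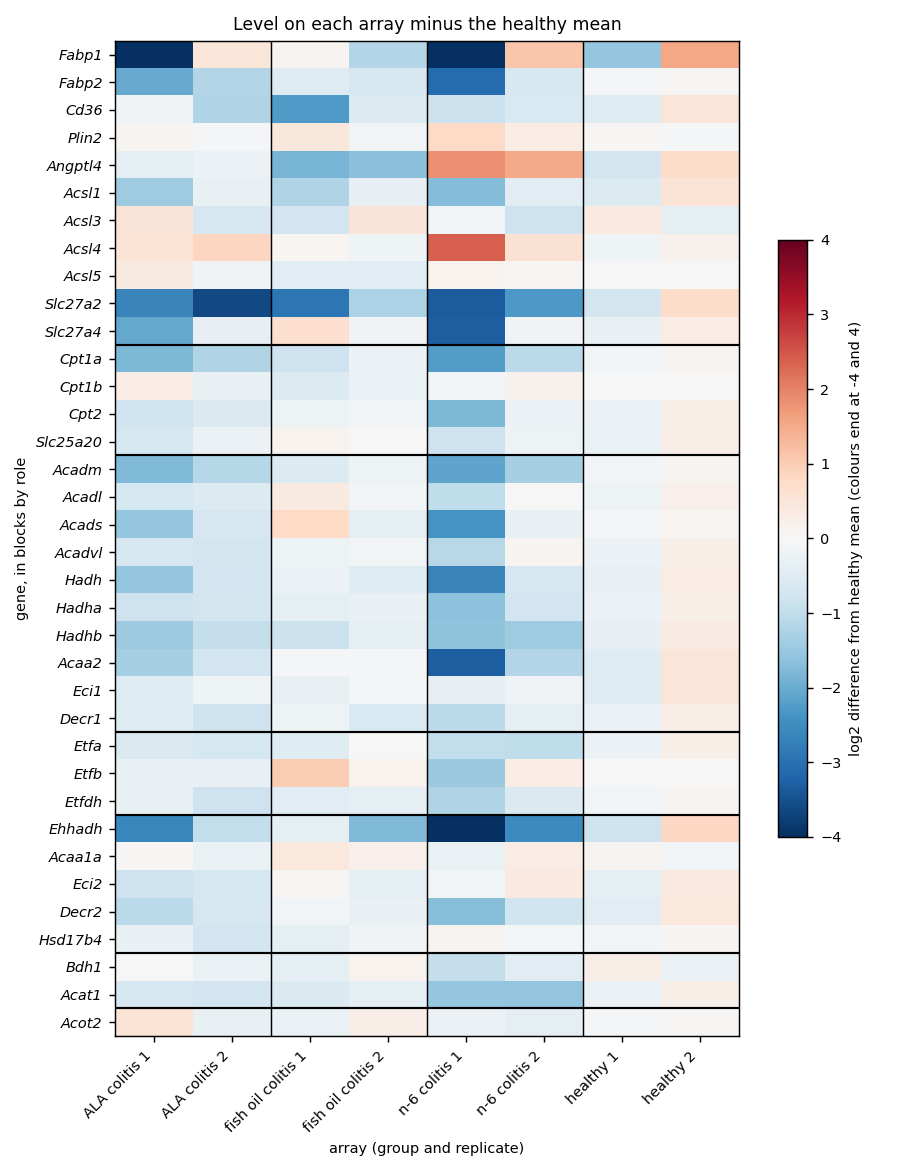
Log2 level of each of the 36 members on each of the 8 arrays minus the mean of the healthy arrays, with genes in blocks by role. Blue is lower than healthy. The mitochondrial beta-oxidation block is mostly blue on the ALA and n-6 arrays and paler on the fish oil arrays, and Angptl4 is red on both n-6 arrays and blue on both fish oil arrays.

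Among the 10 enzymes of mitochondrial beta-oxidation, Acadm, the medium-chain acyl-CoA dehydrogenase, had levels of 2.07 and 2.70 with ALA, 3.30 and 3.65 with fish oil, 1.74 and 2.53 with n-6, and 3.75 and 3.94 in healthy colon. All 4 ALA and n-6 arrays lay below both fish oil arrays, and these lay just below both healthy arrays. Hadhb had levels of -1.64 and -1.15 with ALA, -1.05 and -0.57 with fish oil, -1.79 and -1.60 with n-6, and -0.52 and 0.13 in healthy colon. Hadha had 0.52 and 0.60 with ALA, 0.99 and 1.04 with fish oil, -0.30 and 0.59 with n-6, and 1.12 and 1.56 in healthy colon. The order of the groups was thus the same for both subunits, with healthy highest, fish oil next, and n-6 lowest on the mean. The other Hadha probe had levels of -0.45 and 0.61 with ALA, 0.70 and 0.30 with fish oil, -1.89 and 0.50 with n-6, and 0.40 and 0.61 in healthy colon, so on it n-6 replicate 1 alone stood far below the rest.

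Acaa2, the thiolase of the last step, had levels of 1.80 and 2.34 with ALA, 3.02 and 3.06 with fish oil, -0.19 and 1.93 with n-6, and 2.62 and 3.61 in healthy colon. The fish oil arrays lay between the 2 healthy arrays, and n-6 replicate 1 was far below every other array. Acads, the short-chain acyl-CoA dehydrogenase that acts on butyryl-CoA, had levels of 4.26 and 5.17 with ALA, 6.63 and 5.44 with fish oil, 3.42 and 5.54 with n-6, and 5.75 and 5.90 in healthy colon. Acadl, the long-chain enzyme, had 4.64 and 4.81 with ALA, 5.70 and 5.23 with fish oil, 4.33 and 5.34 with n-6, and 5.14 and 5.56 in healthy colon. In both genes n-6 replicate 2 lay above both ALA arrays while n-6 replicate 1 was the lowest of all 8. Acadvl, for very long chains, had 2.54 and 2.47 with ALA, 3.03 and 3.09 with fish oil, 2.11 and 3.34 with n-6, and 2.99 and 3.44 in healthy colon, and its 2 n-6 arrays lay on either side of all 4 ALA and fish oil arrays. The remaining 3, Hadh, Eci1 and Decr1, ran between -0.01 and 5.76 over all arrays, and Hadh, the short-chain hydroxyacyl-CoA dehydrogenase, differed most between the n-6 arrays, at 2.79 and 4.77.

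**Figure D3:**
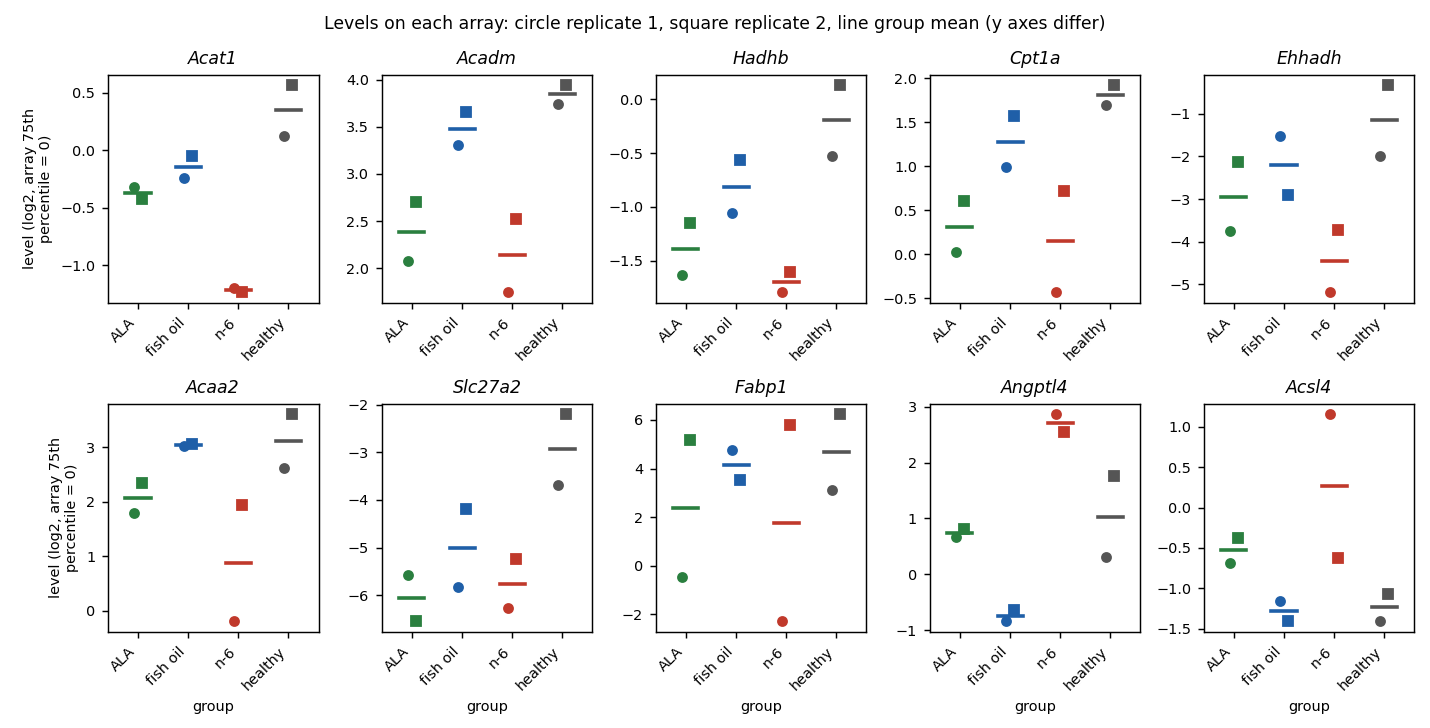
Log2 level on each array (circle replicate 1, square replicate 2, line group mean) of 10 members by group, with a y axis of its own for each gene. Acat1 is lowest on both n-6 arrays, Angptl4 is highest on both n-6 arrays and lowest on both fish oil arrays, and the 2 arrays of a group differ most for Fabp1.

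In the carnitine shuttle, Cpt1a, the outer-membrane enzyme that controls entry into mitochondria, had levels of 0.03 and 0.60 with ALA, 0.99 and 1.57 with fish oil, -0.43 and 0.72 with n-6, and 1.70 and 1.93 in healthy colon. Every colitis array lay below both healthy arrays, and the fish oil arrays lay closest to them. Cpt1b, the muscle form, showed no such order, with 1.08 and 0.50 with ALA, 0.26 and 0.53 with fish oil, 0.69 and 0.97 with n-6, and 0.78 and 0.80 in healthy colon. Its other probe was well above background on only 1 array, so the agreement of 2 probes could not be examined. Cpt2, the inner-membrane enzyme, and Slc25a20, the carnitine-acylcarnitine carrier, ran from 0.03 to 2.06 over all arrays, with the lowest value of each on n-6 replicate 1.

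Electron transfer flavoprotein takes electrons from the acyl-CoA dehydrogenases. Its alpha subunit Etfa had levels of 0.98 and 0.84 with ALA, 1.06 and 1.53 with fish oil, 0.58 and 0.53 with n-6, and 1.32 and 1.80 in healthy colon, both n-6 arrays lying below the other 6. Its beta subunit Etfb had 5.02 and 5.03 with ALA, 6.34 and 5.46 with fish oil, 3.84 and 5.62 with n-6, and 5.32 and 5.31 in healthy colon, so the n-6 arrays lay on either side of the ALA and healthy arrays. Etfdh, which passes the electrons on to ubiquinone, had 0.31 and -0.24 with ALA, 0.17 and 0.24 with fish oil, -0.62 and 0.02 with n-6, and 0.49 and 0.69 in healthy colon.

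In peroxisomes, Ehhadh, the bifunctional enzyme that is a classic PPAR-alpha target in rodent liver, had levels of -3.76 and -2.14 with ALA, -1.52 and -2.91 with fish oil, -5.18 and -3.72 with n-6, and -1.99 and -0.32 in healthy colon. The n-6 arrays lay below both fish oil and both healthy arrays, and overlapped the ALA arrays. Decr2, the peroxisomal dienoyl-CoA reductase, had -4.06 and -3.64 with ALA, -3.08 and -3.28 with fish oil, -4.69 and -3.78 with n-6, and -3.39 and -2.56 in healthy colon. The other peroxisomal members did not show this order. Acaa1a, a peroxisomal thiolase, had 3.65 and 3.34 with ALA, 4.04 and 3.81 with fish oil, 3.34 and 3.90 with n-6, and 3.74 and 3.49 in healthy colon. Hsd17b4, the second bifunctional enzyme, had 1.99 and 1.49 with ALA, 1.87 and 2.14 with fish oil, 2.39 and 2.18 with n-6, and 2.17 and 2.37 in healthy colon. Eci2, an enoyl-CoA isomerase, had 0.60 and 0.73 with ALA, 1.48 and 1.05 with fish oil, 1.30 and 1.82 with n-6, and 1.03 and 1.82 in healthy colon, the ALA arrays being the 2 lowest.

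Of the ketone body enzymes, Acat1, the mitochondrial acetoacetyl-CoA thiolase, was the only member whose 4 groups did not overlap in any pair. Its levels were -0.32 and -0.42 with ALA, -0.24 and -0.05 with fish oil, -1.20 and -1.24 with n-6, and 0.12 and 0.57 in healthy colon. Both n-6 arrays were low by nearly the same amount, and the ALA and fish oil arrays lay between them and the healthy arrays. Bdh1, which interconverts acetoacetate and beta-hydroxybutyrate, had 0.35 and 0.12 with ALA, -0.01 and 0.53 with fish oil, -0.56 and -0.05 with n-6, and 0.63 and 0.13 in healthy colon, with the n-6 arrays lowest by a small margin. The thioesterase Acot2 ran from -0.73 to 0.20 over the 8 arrays, and Pdk4 from -7.30 to -4.98, near background.

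Among genes of uptake, activation and storage, Angptl4, a secreted inhibitor of lipoprotein lipase that fatty acids induce through PPARs and that hypoxia also induces, differed most between the colitis diets. Its levels were 0.67 and 0.80 with ALA, -0.84 and -0.64 with fish oil, 2.87 and 2.54 with n-6, and 0.31 and 1.75 in healthy colon. Both n-6 arrays were above all others and both fish oil arrays below all others, with the ALA arrays inside the healthy range. Acsl4, an acyl-CoA synthetase that prefers arachidonic acid, had -0.68 and -0.38 with ALA, -1.16 and -1.41 with fish oil, 1.16 and -0.62 with n-6, and -1.40 and -1.06 in healthy colon, with n-6 replicate 1 far above the rest and n-6 replicate 2 between the ALA arrays. Acsl5, another synthetase, had 2.66 and 2.15 with ALA, 1.87 and 1.85 with fish oil, 2.44 and 2.37 with n-6, and 2.28 and 2.31 in healthy colon. Plin2, which coats lipid droplets, had 2.83 and 2.66 with ALA, 3.17 and 2.60 with fish oil, 3.50 and 3.02 with n-6, and 2.75 and 2.69 in healthy colon.

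Slc27a2, a very-long-chain acyl-CoA synthetase and fatty acid transporter, had levels of -5.57 and -6.55 with ALA, -5.83 and -4.19 with fish oil, -6.27 and -5.24 with n-6, and -3.68 and -2.20 in healthy colon. It was well above background on both healthy arrays, on 1 of 2 fish oil arrays and on no ALA or n-6 array. Fabp2, the intestinal fatty acid binding protein, had 1.70 and 2.56 with ALA, 3.20 and 3.09 with fish oil, 0.66 and 3.08 with n-6, and 3.68 and 3.76 in healthy colon, lower than healthy on all 6 colitis arrays. Cd36, a fatty acid receptor, had 2.56 and 1.49 with ALA, 0.43 and 2.16 with fish oil, 1.85 and 2.10 with n-6, and 2.21 and 3.20 in healthy colon. Fabp1, the liver-type binding protein, was uneven between duplicates, with -0.45 and 5.16 with ALA, 4.78 and 3.51 with fish oil, -2.29 and 5.79 with n-6, and 3.12 and 6.24 in healthy colon. The 2 arrays of the ALA group, and those of the n-6 group, differed by more than the group means did. The other 3 members of this role, Acsl1, Acsl3 and Slc27a4, ran from -2.32 to 2.82, and n-6 replicate 1 was the lowest array for Acsl1 and Slc27a4.

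The comparison of fish oil colitis with n-6 colitis addressed what long-chain n-3 fatty acids changed relative to the n-6 diet. The mean level was higher with fish oil for all 10 mitochondrial beta-oxidation enzymes and for 3 of 5 peroxisomal ones, and lower for Eci2, Hsd17b4, Cpt1b and Angptl4, with no member past the adjusted test. At an unadjusted p under 0.05, 9 of 36 members differed, against 12% of all genes. By direction, 7 were higher (Acat1, Acadm, Acaa2, Ehhadh, Cpt1a, Decr2 and Hadhb), against 5.99% of all genes, and 2 were lower (Angptl4 and Acsl4), against 6.01%. After adjustment 0 members passed, against 0.0385% of all genes. Arrays were fully separated between the groups for 20 members, 15 higher and 5 lower, against 46.7% of all genes (23% higher and 23.6% lower). The median difference was 0.60 over the 36 members and 0.01 over all genes, with 28 members higher and 8 lower, against 50.4% and 49.6% of all genes. When each array was scaled to its epithelial markers the members' median turned to -0.57 and that of all genes to -1.17, and scaled to mitochondrial genes they were 0.10 and -0.49. Such a scaling moves every gene by the same amount, so the members stayed above the median of all genes by as much. Epithelial markers were higher with fish oil for 10 of 10, with a median of 0.88, and fibroblast markers lower for 7 of 7, with a median of -1.13. Their part in the result was not tested, and these scalings could not test it, because they move every gene alike.

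Angptl4 was lower with fish oil by a log2 difference of -3.44 (SE 0.48, 95% interval -4.58 to -2.31, limma adjusted p = 0.246), which ranked 13 among 18199 genes by p. The 10 mitochondrial beta-oxidation enzymes had a median of 0.88, and 3 of them had an unadjusted p under 0.05. Their median was 0.38 without n-6 replicate 1, with 8 higher and 2 lower and 0 at an unadjusted p under 0.05. Hadhb was higher by 0.89 (SE 0.37, adjusted p = 0.413). Acadm was higher by 1.34 (SE 0.39, adjusted p = 0.409), Acaa2 by 2.17 (SE 0.70, adjusted p = 0.409) and Acat1 by 1.07 (SE 0.30, adjusted p = 0.409). Ehhadh was higher by 2.24 (SE 0.86) and Cpt1a by 1.13 (SE 0.47), both with an adjusted p of 0.409, while Acsl4 was lower, with a log2 difference of -1.55 (SE 0.56). Leaving out n-6 replicate 1 took the members' median to 0.21, with 24 higher and 12 lower, and the count at an unadjusted p under 0.05 to 2 of 36, against 4.68% of all genes in that fit. Leaving out n-6 replicate 2 took them to 0.95 and 18, against 23.4% of all genes. Without n-6 replicate 1, Angptl4 was at -3.28 and Acat1 at 1.09, while Acaa2 was at 1.11, Acadm at 0.95, Cpt1a at 0.56, Ehhadh at 1.51 and Acsl4 at -0.66. Over all fits with 1 array left out, the members' median lay between 0.21 and 0.95.

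**Figure D4:**
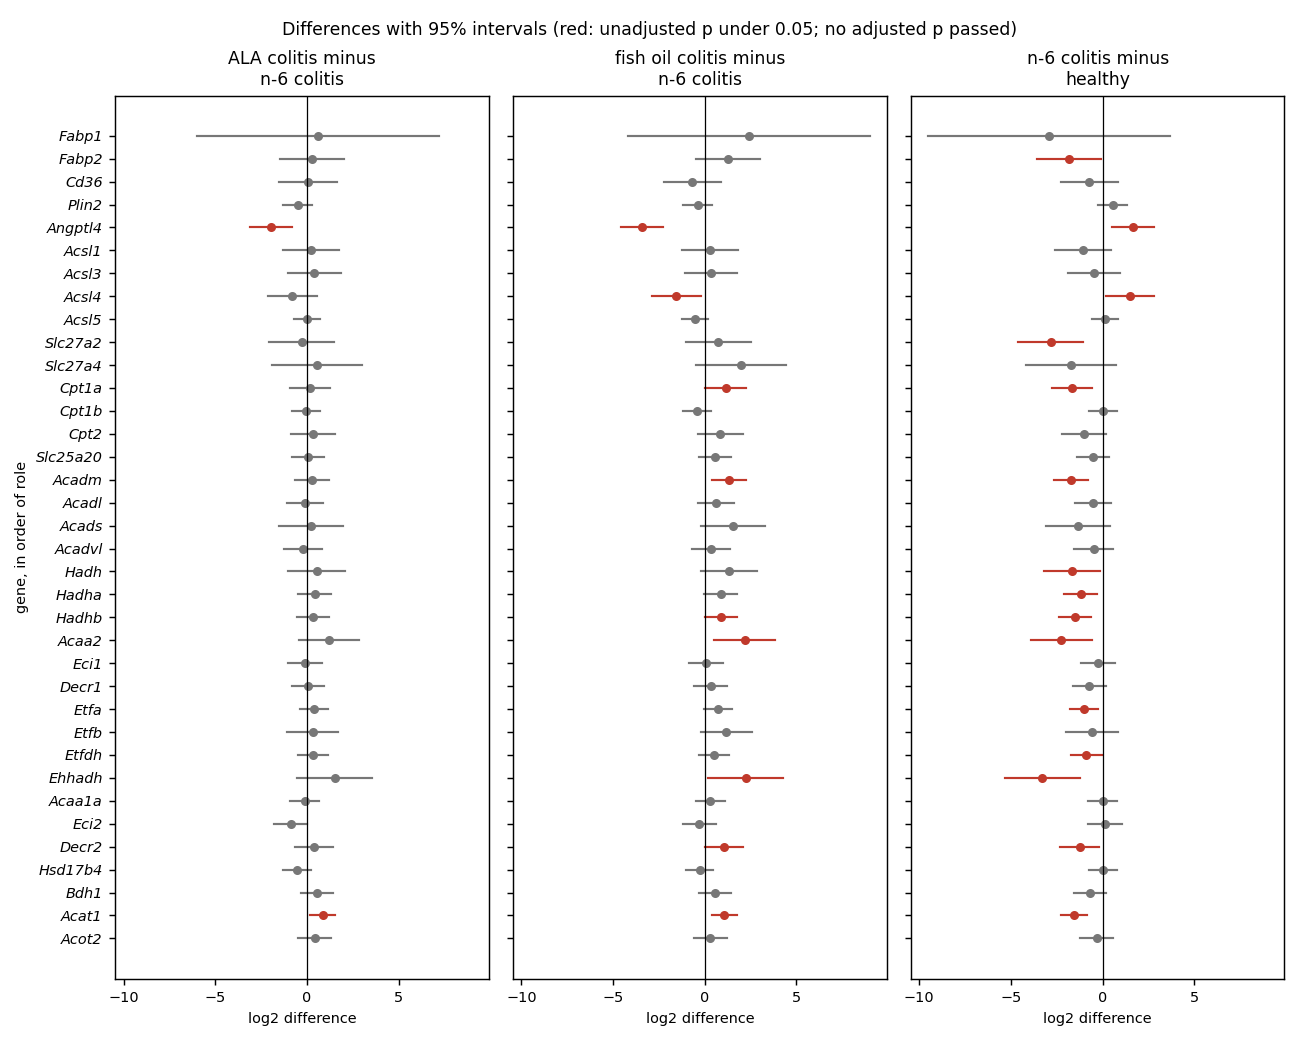
Log2 differences of the 36 members with 95% intervals for ALA minus n-6 colitis, fish oil minus n-6 colitis, and n-6 colitis minus healthy, with red for an unadjusted p under 0.05. The 3 panels share the n-6 arrays. Angptl4 lies farthest to the left in the fish oil panel, at -3.44.

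The comparison of ALA colitis with n-6 colitis asked the same of the plant n-3 fatty acid. Acat1 stood higher and Angptl4 lower with ALA, and most oxidation enzymes overlapped between the groups. At an unadjusted p under 0.05, 2 members differed, or 5.56%, against 5.8% of all genes, so this share was about that of all genes. Acat1 was higher (3.19% of all genes) and Angptl4 lower (2.61%), and 0 passed adjustment, against 0.0275% of all genes. The arrays did not overlap for 7 members, 3 higher and 4 lower, against 30% of all genes (16.9% higher and 13.1% lower), so this share was below that of all genes. On the mean, 25 members were higher and 11 lower, against 56.3% and 43.7% of all genes. The median difference was 0.24 over the members and 0.07 over all genes, and it turned to -0.27 without n-6 replicate 1 and to -0.13 when arrays were scaled to epithelial markers, where that of all genes was -0.30. With that array left out, 11 members were higher and 25 lower, and of the 10 mitochondrial beta-oxidation enzymes 2 were higher and 8 lower, with a median of -0.23, against 0.24 with the array kept. The members' median lay between -0.27 and 0.40 with 1 array left out at a time.

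Angptl4 was lower with ALA by a log2 difference of -1.97 (SE 0.48, limma adjusted p = 0.838) and Acat1 higher by 0.85 (SE 0.30, adjusted p = 0.838). These were -1.80 and 0.87 without n-6 replicate 1. Eci2 was at -0.89 (SE 0.39) and the arrays of Hsd17b4 and Plin2 also lay below those of n-6, at -0.55 and -0.51. Bdh1 was higher by 0.54 (SE 0.36) and Etfa by 0.36 (SE 0.32), with arrays that did not overlap. In the fit without n-6 replicate 1, Eci2 was at -1.15, Hsd17b4 at -0.44, Plin2 at -0.27, Bdh1 at 0.29 and Etfa at 0.38.

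The 2 n-3 diets can be set side by side. ALA colitis lay below fish oil colitis for 29 of 36 members and above it for 7, against 48.9% and 51.1% of all genes, with a median of -0.49, against 0.02 over all genes, and the median turned to 0.32 when arrays were scaled to epithelial markers, where that of all genes was 0.82. All 10 mitochondrial beta-oxidation enzymes and all 5 peroxisomal ones were lower with ALA on the mean, with medians of -0.66 and -0.60. The unadjusted p was under 0.05 for 2 members, 1 higher and 1 lower, against 9.6% of all genes (6.62% higher and 2.98% lower), and 0 passed adjustment, against 0% of all genes. Angptl4 was higher with ALA by 1.48 (SE 0.48, limma adjusted p = 0.475) and Acadm lower, at -1.09 (SE 0.39, adjusted p = 0.486). Arrays did not overlap for 22 members, 3 higher and 19 lower, against 45.7% of all genes (25.3% higher and 20.4% lower). Leaving out 1 array at a time kept the members' median between -0.54 and -0.43. Of the 10 epithelial markers, 9 were lower with ALA, with a median of -0.80.

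Setting n-6 colitis against healthy colon showed what differed with colitis on the same oil. The mean level was lower in n-6 colitis for all 10 mitochondrial beta-oxidation enzymes and the 3 electron transfer genes, while Acaa1a, Eci2, Hsd17b4 and Cpt1b differed by 0.14 or less and Angptl4 and Acsl4 were higher, with no member past the adjusted test. An unadjusted p under 0.05 was found for 15 members, against 14.3% of all genes. Of these 13 were lower, against 7.75% of all genes, and 2 were higher, against 6.58%, while 0 passed adjustment, against 0.0385% of all genes. The 13 include Slc27a2, which passed the filter only through the healthy group, where it was high. Arrays did not overlap for 23 members, 4 higher and 19 lower, against 45.5% of all genes (23.7% higher and 21.7% lower). The median difference was -0.81 over the members and 0.02 over all genes, with 28 lower and 8 higher, against 48.5% and 51.5% of all genes. It was 0.033 when arrays were scaled to epithelial markers, 9 of 10 of which were themselves lower in n-6 colitis, and -0.22 when scaled to mitochondrial genes, where the medians of all genes were 0.87 and 0.62.

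Acat1 had the smallest p, at a log2 difference of -1.56 (SE 0.30, 95% interval -2.26 to -0.86, limma adjusted p = 0.130). The 10 mitochondrial beta-oxidation enzymes had a median of -1.27, and without n-6 replicate 1 it was -0.54, with 9 lower and 1 higher. Of these, Acadm was at -1.71 (SE 0.39, adjusted p = 0.170), Hadhb at -1.50 (SE 0.37, adjusted p = 0.188), Acaa2 at -2.24 (SE 0.70, adjusted p = 0.240) and Hadha at -1.20 (SE 0.38, adjusted p = 0.244). Ehhadh was at -3.29 (SE 0.86, adjusted p = 0.199) and Cpt1a at -1.67 (SE 0.47, adjusted p = 0.212). Slc27a2 was not well above background on either n-6 array and was at least 6.98-fold lower (adjusted p = 0.203), but it entered the test only through the healthy group, where it was high, so its p is given as a description. Its measured means were -5.76 (n-6 colitis) and -2.94 (healthy). For such a bound the dim probe's signal on each array was replaced by the lowest signal well above background where that was higher, and these values were averaged before they were set against the healthy mean. The bound covers the dim signal only and not the spread between arrays. Angptl4 was higher by 1.67 (SE 0.48, adjusted p = 0.216) and Acsl4 by 1.50 (SE 0.56, adjusted p = 0.301).

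Of the 36 members, 19 were below both healthy arrays on both n-6 arrays, against 21.7% of all genes. A further 9 were below them on n-6 replicate 1 alone and 1 (Acsl3) on n-6 replicate 2 alone. Shares of all genes low on 1 array alone were not counted. Those low on each array, whatever the other, were 37% on replicate 1 and 36.9% on replicate 2. The members low on replicate 1 alone included Acadl, Acadvl, Etfb, Fabp1, Acsl1 and Slc27a4. Without n-6 replicate 1 the median was -0.40, with 26 lower and 10 higher, and the count at an unadjusted p under 0.05 was 5 of 36, against 9.85% of all genes in that fit. Without n-6 replicate 2 they were -1.16 and 23, against 21.5% of all genes. Without n-6 replicate 1 and without n-6 replicate 2, Acat1 was at -1.58 and -1.54, Acadm at -1.32 and -2.10, Hadhb at -1.41 and -1.60, Acaa2 at -1.18 and -3.30, Hadha at -0.75 and -1.65, Ehhadh at -2.56 and -4.03, Cpt1a at -1.09 and -2.24, and Acsl4 at 0.61 and 2.39. Over all fits with 1 array left out, the members' median lay between -1.16 and -0.40.

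ALA colitis against healthy colon had 32 of 36 members lower and 4 higher, against 46.9% and 53.1% of all genes, with a median of -0.68, against 0.04 over all genes, and of -0.21 when arrays were scaled to epithelial markers, against 0.51 over all genes. Of the 36 members, 5 were lower at an unadjusted p under 0.05 and 0 higher, against 6.54% of all genes (2.18% lower and 4.36% higher). The 5 include Slc27a2, which passed the filter only through the healthy group, where it was high. After limma's adjustment 0 members passed, against 0% of all genes. Arrays did not overlap for 23 members, 22 lower and 1 higher, against 40.6% of all genes (18.1% lower and 22.5% higher). Slc27a2 was at least 7.34-fold lower (limma adjusted p = 0.669), with the same limit, and with measured means of -6.06 in ALA colitis and -2.94 in healthy colon. Cpt1a was at -1.50 (SE 0.47), Acadm at -1.46 (SE 0.39), Hadhb at -1.20 (SE 0.37) and Acat1 at -0.72 (SE 0.30), with adjusted p between 0.682 and 0.760. With 1 array left out at a time, the members' median lay between -0.94 and -0.44. The epithelial markers were lower for 7 of 10, with a median of -0.32, and their part in the result was not tested.

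Fish oil colitis had a median difference from healthy colon of -0.27 over the members, the smallest of the 3 diets on this scale, 29 of 36 lower and 7 higher, against 49.8% and 50.2% of all genes. When arrays were scaled to epithelial markers this median was -0.60 and that of all genes -0.33. Such a scaling moves every gene by the same amount, so the members stayed below the median of all genes by as much. The unadjusted p was under 0.05 for 2 members, both lower, against 3.9% of all genes (2.13% lower and 1.76% higher), with 0 passing limma's adjustment, against 0% of all genes. Arrays did not overlap for 15 members, 13 lower and 2 higher, against 38.8% of all genes (20.5% lower and 18.3% higher). Angptl4 was at -1.77 (SE 0.48, limma adjusted p = 0.994). The other of the 2 was Slc27a2, which passed the filter only through the healthy group and was well above background on 1 of 2 fish oil arrays, so no size is given. Cd36 was at -1.41 (SE 0.66), and at -0.55 without fish oil replicate 1 and -2.27 without fish oil replicate 2. With 1 array left out at a time, the members' median lay between -0.49 and -0.08.

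The rest of the pathway was read from lists of other genes. Of 31 other genes of beta-oxidation and ketogenesis, 29 were measured, and 0 passed adjustment in any comparison. Echs1, the mitochondrial enoyl-CoA hydratase, had levels of 3.87 and 3.65 with ALA, 4.29 and 4.13 with fish oil, 3.15 and 3.41 with n-6, and 4.56 and 4.51 in healthy colon. All 6 colitis arrays lay below both healthy arrays, and both n-6 arrays were the lowest. Its log2 difference was -1.25 in n-6 colitis against healthy (SE 0.29, limma adjusted p = 0.167) and 0.93 in fish oil against n-6 colitis. Acadsb, a short branched-chain acyl-CoA dehydrogenase, was not well above background on the n-6 arrays. Its measured log2 difference in n-6 colitis against healthy was -1.81 (SE 0.53, adjusted p = 0.220). It entered the test only through groups other than n-6, so its p is given as a description. Acadsb is still among the genes counted next as higher in both n-3 diets against n-6 and as lower in n-6 against healthy. By count at an unadjusted p under 0.05, 3 list genes were higher and 0 lower in ALA against n-6 (3.19% and 2.61% of all genes), 3 and 0 in fish oil against n-6 (5.99% and 6.01%), and 0 and 7 in n-6 against healthy (6.58% and 7.75%). These counts were 0 and 0, 1 and 0, and 0 and 3 without n-6 replicate 1, with 4.26% and 2.71%, 2.33% and 2.35%, and 4.42% and 5.43% of all genes.

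Of 34 other genes of uptake, binding, activation and lipid droplets, 26 were measured, with 0 passing adjustment. The unadjusted p was under 0.05 for 3 higher and 0 lower in ALA against n-6 (3.19% and 2.61% of all genes), 5 and 1 in fish oil against n-6 (5.99% and 6.01%), and 1 and 9 in n-6 against healthy (6.58% and 7.75%). None of these counts was larger without n-6 replicate 1, where the list's mean was the lowest of the 8 arrays, at -1.31 (-0.46 on n-6 replicate 2). Slc27a6, a fatty acid transport protein, had levels of -4.83 and -4.04 with ALA, -3.79 and -2.27 with fish oil, -6.86 and -5.56 with n-6, and -1.90 and -1.63 in healthy colon. It was at least 17.6-fold lower in n-6 colitis than in healthy colon (limma adjusted p = 0.101), with no signal well above background on the n-6 arrays. Slc27a6 entered the test only through groups other than n-6, so its p is given as a description. It is still among the genes counted above as higher in both n-3 diets against n-6 and as lower in n-6 against healthy. Acss2, which activates acetate, was at -1.80 in the same comparison (SE 0.41, adjusted p = 0.166) and Plin3, a lipid droplet coat protein, at -1.24 (SE 0.39, adjusted p = 0.242). Acss2 was at -1.69 and Plin3 at -0.83 without n-6 replicate 1. The epidermal-type binding protein Fabp5 ran the other way, higher in n-6 colitis by 0.95 (SE 0.32, adjusted p = 0.270) and lower in fish oil than in n-6 colitis, at -0.97.

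Regulators and fuel switch genes were measured for 16 of a list of 21 names, 2 of which stand for 1 gene on the array, again with 0 passing adjustment. Those at an unadjusted p under 0.05 were 3 higher and 0 lower in ALA against n-6 (3.19% and 2.61% of all genes), 3 and 0 in fish oil against n-6 (5.99% and 6.01%), and 0 and 5 in n-6 against healthy (6.58% and 7.75%). Those counts moved without n-6 replicate 1, where the list's mean was the lowest of the 8 arrays, at -3.06 (-1.82 on n-6 replicate 2). Ppara, the receptor PPAR-alpha, had levels of -3.73 and -4.26 with ALA, -5.71 and -5.85 with fish oil, -6.01 and -5.01 with n-6, and -4.07 and -3.77 in healthy colon. It was well above background on the 4 ALA and healthy arrays and on no fish oil or n-6 array. It entered the test only through the ALA and healthy groups, where it was high, so its p-values are given as a description. Ppara is still among the 3 genes counted as higher in ALA against n-6 and the 5 lower in n-6 against healthy. With a dim n-6 signal, its measured log2 difference was 1.52 in ALA against n-6 colitis (SE 0.41, limma adjusted p = 0.838). In n-6 colitis against healthy it was -1.59 (SE 0.41, adjusted p = 0.199). Ppara was at least 2.56-fold lower in fish oil colitis than in healthy colon (adjusted p = 0.994). Ppargc1a, a coactivator of mitochondrial genes, had -3.61 and -3.51 with ALA, -3.27 and -2.87 with fish oil, -7.01 and -4.14 with n-6, and -2.44 and -2.42 in healthy colon. Its relative Ppargc1b was at -2.82 in n-6 colitis against healthy (SE 0.77, adjusted p = 0.207) and higher by 2.79 in fish oil against n-6 colitis. The differences of Ppargc1b were -1.61 and 1.58 without n-6 replicate 1, and Ppargc1a was at -1.71 in n-6 colitis against healthy, where it was at -3.15 with that array.

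Genes that mark other properties of the tissue differed along with the members. All 14 genes of mitochondrial content were measured, and 12 were lower in n-6 colitis than in healthy colon, with a median of -0.51. At an unadjusted p under 0.05, 4 were lower, against 7.75% of all genes. Without n-6 replicate 1, 11 were lower on the mean, with a median of -0.49. Their mean level was 2.57 and 2.28 with ALA, 2.60 and 2.77 with fish oil, 2.03 and 2.34 with n-6, and 2.71 and 2.84 in healthy colon. Of the 10 epithelial markers, 9 were lower in n-6 colitis than in healthy colon (median -0.45) and 10 were higher in fish oil than in n-6 colitis (median 0.88). These were 4 lower (median 0.23) and 8 higher (median 0.43) without n-6 replicate 1. Of 7 measured fibroblast markers, 6 were higher in n-6 colitis than in healthy colon (median 1.07) and 7 were lower in fish oil than in n-6 colitis (median -1.13). Leaving out n-6 replicate 1 gave 6 higher (median 0.80) and 6 lower (median -0.78). The mean of 5 measured red cell genes was -0.08 and 0.23 with ALA, -0.58 and -0.44 with fish oil, 3.87 and 3.25 with n-6, and -0.60 and -0.96 in healthy colon. Red cell genes were the only list with members past limma's adjusted p of 0.05, with 4 of 5 higher in n-6 colitis than in healthy colon and 3 lower in each of ALA and fish oil colitis than in n-6 colitis. The part of these lists in the members' results was not tested, and the scalings given above, which move every gene alike, could not test it.

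Most markers of inflammatory cells had higher means in n-6 colitis than in healthy colon. Of 4 measured neutrophil markers 3 were higher, with a median of 2.12, and of 7 macrophage markers 7 were higher, with a median of 0.89. Of these, 3 and 4 were higher at an unadjusted p under 0.05, against 6.58% of all genes, and 0 passed adjustment. These medians were 1.62 and 1.36 without n-6 replicate 1. Their part in the members' results was not tested. Absorptive colonocyte markers, of which 12 of 13 were measured, averaged between 0.66 and 2.47, both ends being ALA arrays. Macrophage markers (7 of 8 measured) averaged between -2.78 and -1.06 and neutrophil markers (4 of 8) between -4.94 and -1.80, with n-6 replicate 1 the highest for both. Adipocyte markers (6 of 8) ran from -2.26 to 1.23 with n-6 replicate 1 the lowest, smooth muscle (8 of 8) from 4.70 to 5.45, striated muscle (7 of 8) from -2.57 to -1.15, small intestinal enterocyte (7 of 9) from -2.81 to -0.67 and hepatocyte (2 of 6) from -5.40 to -3.62. The intestinal marker Si and the liver markers Apoh and Serpina1 were dim on all 8 arrays.

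Of the 37 genes, 5 had a second probe. For Hadha both probes gave a log2 difference of -1.20 in n-6 colitis against healthy on the means, but on the second probe n-6 replicate 2 (0.50) lay between the healthy arrays, so there the difference rested on n-6 replicate 1 alone. For Acaa1a and Cd36 both probes were measured, and fish oil replicate 1 was the lowest array on both Cd36 probes, at 0.43 and -1.99. The second probes of Acot2 and Cpt1b were well above background on 1 array each and were not used.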

How the data were processed

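The deposited scanner files hold intensity values of Agilent 1-colour arrays, made with Feature Extraction 11.5.1.1 per the file headers; the processed signal is background-corrected by that software, and probe positions are on rn4. A deposited table of the authors holds the same arrays on a log2 scale, whose centring the sources used here do not state and whose column medians lay between -3.18 and -2.89; it served as an alternative. From the processed signal, log2 values minus the array's 75th percentile were computed, control spots were left out, spots of a probe were averaged, and the probe with the highest mean signal stood for its gene. Probes were kept where both arrays of some group were well above background (20801 of 30367, for 18199 genes). Differences were fitted with limma 3.58.1 (R 4.3.3) on all 8 arrays, which share 1 estimate of spread with 4 residual degrees of freedom, and p-values were adjusted by the Benjamini-Hochberg method over all 18199 genes, so precision is limited by the number of arrays. A difference counts as past the test at an adjusted p under 0.05. The 6 comparisons share arrays and are not independent. The fit was tested on simulated data.

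Members, lists and tests were chosen with earlier results of these data known. Array values were given for 12 anchor genes of the pathway, for members or list genes with the smallest p and arrays that did not overlap, and for members not above background in 1 group. Etfdh, Fabp2 and Hadh were added after their values were seen. The carriers Slc16a1 and Slc5a8 were not picked by these rules either. Promoters came from RefSeq on GRCr8. Alternatives were another background correction, scaling, filter, probe rule and table, fits with a replicate block or only the groups compared, and leaving out each array. Some list genes are not reported here by name.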

Additional observations from a re-analysis of the deposited data

Results flagged for a closer look

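In 3 cases the arrays of the 2 n-3 or n-6 diets lay on opposite sides of both healthy arrays. The share of all genes arranged in this way was not counted, so the number of cases is only a description. Angptl4 was below both healthy arrays on both fish oil arrays and above both on both n-6 arrays, with a log2 difference of -3.44 between fish oil and n-6 colitis. Acsl5 was arranged in the same way, with a log2 difference of -0.55. Its healthy arrays lay close together, at 2.28 and 2.31, and its n-6 arrays just above them, at 2.44 and 2.37. For Etfb both ALA arrays were below both healthy arrays and both fish oil arrays above them, with a log2 difference of -0.87. The healthy arrays of Etfb also lay close together, at 5.32 and 5.31. The difference between the diets' effects relative to healthy colon was not tested as such.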

How the results depend on the processing

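No member passed an adjusted p of 0.05 under any alternative planned, and 1 did when arrays were scaled to epithelial markers, which was chosen after seeing the data, as was scaling to mitochondrial genes. It was Angptl4 in fish oil against n-6 colitis, at -4.62. That call is not relied on, because this scaling adds 1 shift per array to every gene: limma then gave nearly all genes one SE (0.857 to 0.888 between the 5th and 95th percentile, against 0.289 to 0.916 without it) with 132 prior degrees of freedom against 3.02, and 480 genes passed in that comparison against 7. Scaled to epithelial markers, members at an unadjusted p under 0.05 numbered 1 in ALA against n-6, 4 in fish oil against n-6, 5 in n-6 against healthy, 1 in ALA against healthy, 3 in fish oil against healthy and 1 in ALA against fish oil, against 1.54%, 21.4%, 10.9%, 6.56%, 2.08% and 13% of all genes, with medians of -0.13, -0.57, 0.033, -0.21, -0.60 and 0.32. Scaled to mitochondrial genes, the counts were 5 in fish oil against n-6, 9 in n-6 against healthy and 3 in ALA against healthy, against 19.1%, 24.2% and 10.6% of all genes, with medians of 0.10 and -0.22 in the first 2. With only the groups compared in the fit, the counts were 1 in ALA against n-6 (4.21% of all genes) and 5 in fish oil against n-6 (9.87%). In fish oil against healthy the count was then 1 (6.53%), and also 1 when probes had to be above background on all 8 arrays (3.3%). Apart from that shift, the cause was not tested. Leaving out 1 array at a time gave 0 passing throughout. Counts then ranged from 1 to 9 and medians from -0.27 (without n-6 replicate 1) to 0.40 in ALA against n-6, from 2 to 18 and 0.21 to 0.95 in fish oil against n-6, and from 5 to 23 and -1.16 to -0.40 in n-6 against healthy. They ranged from 2 to 10 and -0.94 to -0.44 in ALA against healthy, from 1 to 3 and -0.49 to -0.08 in fish oil against healthy, and from 0 to 6 and -0.54 to -0.43 in ALA against fish oil. With the replicate number as a block, 0 members passed. The counts were 2 in ALA against n-6 (7.04% of all genes), 11 in fish oil against n-6 (13.6%) and 15 in n-6 against healthy (15.1%). They were 6 in ALA against healthy (8.66%), 3 in fish oil against healthy (4.97%) and 3 in ALA against fish oil (12.2%). Same-numbered arrays correlated between -0.168 and 0.47, the highest being healthy with ALA colitis, and no pairing was assumed. Of 2694 values of the 26 named members under the alternatives, 149 changed sign. Over all genes, 69 passed in n-6 against healthy with normexp background correction, against 7 in the reported fit.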

Other observations

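Transport of butyrate, the main fuel of colon epithelium, was read from 2 carriers that are not among the members. The rules for naming list genes did not pick them. Slc16a1, the monocarboxylate transporter MCT1, had levels of 2.18 and 1.14 with ALA, 1.44 and 2.93 with fish oil, 0.99 and 0.65 with n-6, and 2.71 and 2.13 in healthy colon. Both n-6 arrays were the lowest, with a log2 difference of -1.60 from healthy (SE 0.58, limma adjusted p = 0.292). Slc5a8, a sodium-coupled carrier of short-chain fatty acids, had 1.08 and -1.52 with ALA, -0.19 and 0.73 with fish oil, -1.11 and -0.97 with n-6, and 1.52 and 0.78 in healthy colon, with a difference of -2.19 in n-6 colitis against healthy (SE 0.81, adjusted p = 0.297). The receptor PPAR-gamma, Pparg, had 1.32 and 3.30 with ALA, 3.33 and 3.50 with fish oil, -0.23 and 3.19 with n-6, and 3.58 and 4.11 in healthy colon, all 6 colitis arrays lying below both healthy arrays. Without n-6 replicate 1 the differences of Slc16a1, Slc5a8 and Pparg in n-6 colitis against healthy were -1.77, -2.12 and -0.65.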
